A study of Mus musculus with 5 samples.

Results

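The Notch pathway was followed through 10 genes in CD4 single-positive (CD4 SP) thymocytes, the cells that have lost CD8 and kept CD4 on the way to becoming helper T cells. The genes were chosen by name and cover the receptors *Notch1*, *Notch2* and *Notch3*, the ligands *Jag1* and *Jag2*, the DNA-binding factor *Rbpj*, its coactivator *Maml2*, the ubiquitin ligase *Dtx1* and the target genes *Hes1* and *Ptcra*. Each symbol matched 1 gene identifier, so that they are 10 of 55487 identifiers with counts. Of the 10 genes, 7 had enough reads to be tested, among 13525 tested genes, and *Notch3*, *Hes1* and *Ptcra* did not.

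Notch receptors are cut when a ligand on a neighbouring cell pulls on them, and the freed intracellular part enters the nucleus, joins RBPJ and a Mastermind protein and switches on genes. In the thymus, signalling through NOTCH1 commits precursors to the T cell lineage and is needed up to beta-selection, after which it is turned down. TET2 and TET3 are dioxygenases that oxidise 5-methylcytosine, mostly where C is followed by G, and so favour loss of DNA methylation.

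The study compared 3 wild type (WT) mice with 2 *Tet2/3* DKO mice, all C57BL/6J, with 1 library for each mouse, so that the libraries of a group are separate animals. The DKO mice are Tet2-/-Tet3flx/flxCD4cre: they lack *Tet2* in all cells, and lose *Tet3* in cells that have expressed a Cre recombinase driven by *Cd4* regulatory elements, which starts late in thymocyte development. The mice were between 21 and 30 days old. Cells were sorted as CD24 low, CD4+, TCRβ+, CD8- and negative for the αGalCer-loaded CD1d tetramer that marks iNKT cells, to a purity above 98%. In such bulk RNA, fewer cells of a type and less RNA per cell cannot be told apart.

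Reads counted on genes ranged from 23529075 to 27267031 in WT and from 17607089 to 21371743 in *Tet2/3* DKO libraries. The targeted gene *Tet3* was at 43.8, 45.6 and 52.5 CPM (read counts divided by the scaled size of the library) in WT and at 20.0 and 13.2 CPM in DKO replicates 1 and 2, and it fell (log2 fold change -1.50, adjusted p = 0.00121). Every adjusted p given without another name is from the quasi-likelihood test of edgeR with the adjustment of Benjamini and Hochberg over all tested genes. *Tet2* was at 52.4 to 57.8 CPM in WT and at 91.5 and 58.6 CPM in DKO libraries, and counts per gene do not check its allele. By its label WT replicate 1 is female, and the remaining labels say male. *Xist*, the RNA of the inactive X chromosome, had 0 counts in WT replicate 1 and 744 in DKO replicate 1, against 0 to 2 in the others, and 4 Y-linked genes summed to 7 counts in DKO replicate 1 and to at least 5101 in every other library. Both libraries go against their labelled sex, so calls are also given without them. *Tet3* passed without DKO replicate 1 (-1.85) and without WT replicate 1 (-1.56, adjusted p = 0.00853), but not without WT replicate 2 (0.0154) or WT replicate 3 (0.0144). The share of reads on no gene was also highest in DKO replicate 1, 5.70% against 3.51% to 3.72%. *Cd3e*, a defining T cell gene, was at 621 to 743 CPM in the 5 libraries, while *Rag1*, which double-positive thymocytes express, had no read in any and *Rag2* had 1 in all. Other genes of that stage were present, with *Dntt* at 253 to 560 reads, *Cd24a* at 117 to 511 and *Cd8b1* at 484 to 1967 in a library.

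None of the 7 tested genes passed the study's threshold of an adjusted p below 0.01, where 3.92% of all tested genes did. With the threshold at 0.05, *Jag1* was higher and *Dtx1* lower in *Tet2/3* DKO cells, 2 of 7 genes against 8.67% of all tested genes. The same pair passed an unadjusted p of 0.05, as 23% of all tested genes did, and passed 0.01 with DESeq2, as 6.91% of the genes it tested did. The log2 fold changes (DKO minus WT) of the 7 genes ran from -0.66 to 3.67 with a median of -0.14, against a median of 0.01 over all tested genes. In 3 of the 7 genes both DKO libraries lay outside the WT range, *Jag1* above it (as 19.6% of all tested genes) and *Dtx1* and *Maml2* below it (as 19.5%). With 2 libraries against 3 a separation in either direction held for 39.1% of all tested genes, so such a separation by itself is common here.

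**Figure D1:**
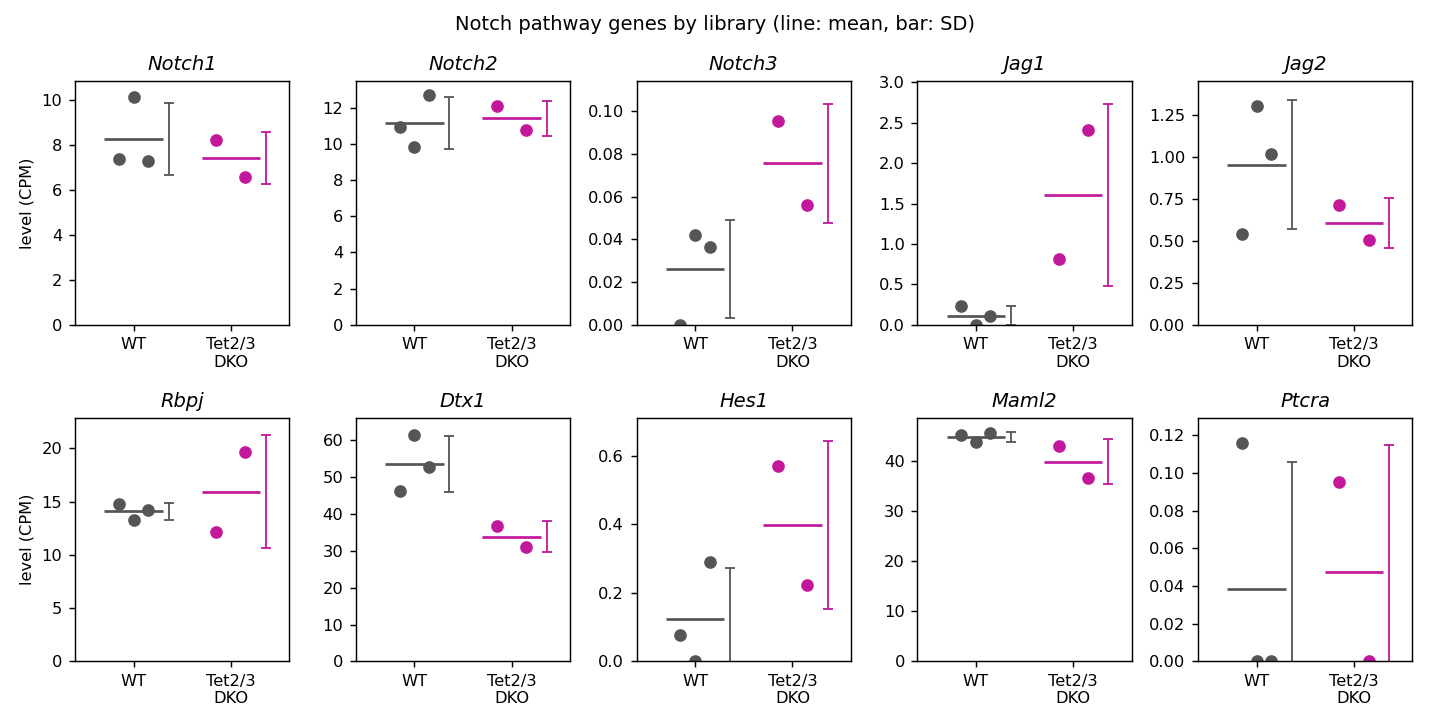
Level of the 10 Notch pathway genes in CPM, 1 panel for each gene with its own axis from 0, with a point for each library (WT grey, *Tet2/3* DKO magenta), a line at the mean and a bar for the SD. *Jag1* lies higher and *Dtx1* and *Maml2* lower in both DKO libraries than in all 3 WT libraries.

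The promoters of *Jag1* and *Dtx1*, the pair with the smallest p among the 7 tested genes, are printed because TET proteins act on C followed by G, written here in capitals. Each run is 300 bases from RefSeq on GRCm38.p6, from 250 bases before to 50 after the annotated start. *Jag1* is read on the minus strand of chr2:137116471-137116770 and *Dtx1* on the minus strand of chr5:120711620-120711919.
Jag1: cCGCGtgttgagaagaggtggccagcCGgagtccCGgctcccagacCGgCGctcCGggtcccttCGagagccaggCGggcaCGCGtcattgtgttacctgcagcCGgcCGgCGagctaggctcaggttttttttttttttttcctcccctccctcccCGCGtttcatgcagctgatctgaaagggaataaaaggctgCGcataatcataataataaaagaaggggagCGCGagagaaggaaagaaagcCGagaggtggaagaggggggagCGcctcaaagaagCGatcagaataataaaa
Dtx1: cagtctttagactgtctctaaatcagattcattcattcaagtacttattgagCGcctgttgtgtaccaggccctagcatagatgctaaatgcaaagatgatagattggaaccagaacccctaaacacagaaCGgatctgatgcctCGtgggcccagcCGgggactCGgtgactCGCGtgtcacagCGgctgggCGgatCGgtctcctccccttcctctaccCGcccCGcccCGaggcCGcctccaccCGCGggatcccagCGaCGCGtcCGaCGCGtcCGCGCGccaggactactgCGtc
The *Jag1* promoter holds 22 such pairs of bases and the *Dtx1* promoter 26, more than 76.9% and 83.1% of 32851 mouse promoters, whose median is 7. The *Ptcra* promoter holds 1 and the *Jag2* promoter 63. Methylation was not measured in these libraries, so the counts describe the sequence alone.

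RBPJ binds the letters TGGGAA, which read TTCCCA on the other strand. Either form lies in 25.6% of the mouse promoters of this length and in 4 of the 11 promoters listed for 9 of the 10 genes. Those of *Rbpj*, *Maml2* and *Ptcra* are shown with the motif in capitals, from chr5:53590185-53590214 and chr5:53590269-53590298 (both plus strand), chr9:13662303-13662332 (plus strand), and chr17:46763779-46763808 and chr17:46763727-46763756 (both minus strand).
Rbpj, upstream: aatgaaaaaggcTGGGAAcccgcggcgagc
Rbpj, nearer the start: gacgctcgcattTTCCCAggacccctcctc
Maml2: acactcttgcacTTCCCAgggctcgggcag
Ptcra, upstream: cccagaaagcacTGGGAActagggggtaga
Ptcra, nearer the start: gggtctgtgatcTGGGAAgcagtgtagtag
The second *Rbpj* window lies before both annotated starts of the gene, and the matches in *Ptcra*, a gene that was almost silent in these cells, stand 84 and 32 bases before its start. The printed *Jag1* and *Dtx1* promoters hold no match. A match describes the letters only and shows no binding.

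The 10 genes spanned a wide range of levels in WT cells, compared per length as CPM per kb of exon (mean ± SD, n = 3). *Dtx1* led with 10.2 ± 1.43 CPM per kb, above 66.5% of tested genes, and *Maml2* followed with 6.79 ± 0.145. *Rbpj* at 1.10 ± 0.0614 and *Notch2* at 1.03 ± 0.134 CPM per kb overlapped between libraries, and *Notch1* came next with 0.582 ± 0.114, a level that leaves out reads lost to overlapping genes, so that its place below *Notch2* is not settled. A downstream regulator and a coactivator thus had more RNA per length than any receptor. *Jag2* followed at 0.137 ± 0.0555 CPM per kb, and *Hes1*, *Ptcra*, *Jag1* and *Notch3* lay between 0.0604 and 0.00324 with ranges that overlapped from each to the next. The place of *Rbpj* depends on which exons are counted as its length: over its longest transcript alone its level was 2.57 CPM per kb, clear of *Notch2*. In *Tet2/3* DKO cells the means of the leading 5 kept their order, with *Dtx1* at 6.43 ± 0.779 and *Maml2* at 6.04 ± 0.686 CPM per kb (SD, n = 2), whose libraries overlapped, as did those of *Rbpj* (0.954 and 1.54) and *Notch2* (1.12 and 0.996). *Jag2* was above *Jag1* in all 3 WT libraries. In DKO libraries *Jag1* was at 0.139 and 0.413 CPM per kb and *Jag2* at 0.103 and 0.0723, so *Jag1* was the higher in DKO replicate 2, while in DKO replicate 1, with 17 and 15 reads, the order was within counting error.

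**Figure D2:**
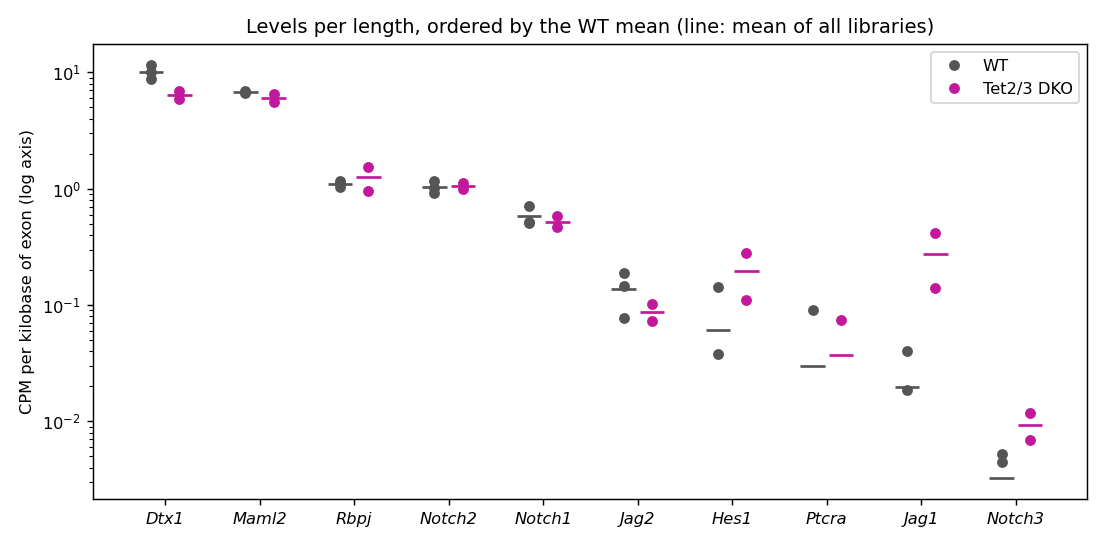
Level of the 10 Notch pathway genes in CPM per kb of exon on a log axis, with a point for each library (WT grey, *Tet2/3* DKO magenta) and a line at the group's mean; libraries with no read are not drawn but count in the mean. *Dtx1* and *Maml2* lie above the receptors in every library, and *Jag1* lies higher in both DKO libraries than in any WT library.

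Of the receptors, 3 of 4 were tested and none passed, and neither *Notch1* nor *Notch2* differed by more than the spread of its libraries. *Notch1* (ENSMUSG00000026923, chr2:26457903-26516663, GRCm38), the receptor that commits precursors to the T cell fate, had 191, 241 and 200 reads in WT replicates 1 to 3, and DKO replicates 1 and 2 had 173 and 118. Scaled, these were 8.28 ± 1.63 CPM (SD, n = 3) in WT and 7.43 ± 1.16 CPM (SD, n = 2) in DKO cells, with overlapping libraries and a log2 fold change of -0.14 (95% interval -0.66 to 0.38, adjusted p = 0.784). *Notch1* shares 7.5% of its exon bases with 0610009E02Rik and 2.91% with Gm13568, which lie on the opposite strand, and 43.1% of its reads could be given to a gene only when strand was used. The library kit does not mark strand, so reads of *Notch1* and of these neighbours cannot be told apart. *Notch1* fitted from the reads of each strand gave log2 fold changes of 0.05 and -0.07.

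*Notch2* (ENSMUSG00000027878, chr3:98013527-98150361), a receptor better known in B cells and myeloid cells, had 283, 233 and 348 reads in WT and 254 and 192 in DKO libraries, or 11.2 ± 1.44 CPM against 11.4 ± 0.967 CPM. The libraries of the genotypes overlapped, and the log2 fold change was 0.03 (95% interval -0.37 to 0.44, adjusted p = 0.943). Which of *Notch1* and *Notch2* was the more abundant is not settled: with the reads of both strand columns, which also take in those of its neighbours, *Notch1* had 336, 390 and 352 in WT and 339 and 204 in DKO libraries, above *Notch2* in each. *Notch3* (ENSMUSG00000038146, chr17:32120820-32166852), which early thymocytes use up to beta-selection, had 0, 1 and 1 reads in WT and 2 and 1 in DKO libraries. All of these lie under the floor of 3 counts, which is worth 0.109 to 0.168 CPM in a library, so no fold is given. The fourth receptor of the family, *Notch4*, had 12 to 17 counts in every library (log2 fold change 0.26, adjusted p = 0.799). Summed over the 4 receptors, WT libraries held 19.0, 20.5 and 20.5 CPM and DKO libraries 21.1 and 18.1 CPM, so the DKO libraries stood on either side of the WT range.

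*Jag1* (ENSMUSG00000027276, chr2:137081456-137116644) encodes a ligand that is presented to Notch receptors by other cells, and it showed the largest log2 fold change of the 7 tested genes. Read counts were 6, 0 and 3 in WT and 17 and 43 in DKO libraries, for which counting error alone allows 9.90 to 27.2 and 31.1 to 57.9 (95% exact Poisson intervals). Both DKO libraries lay above every WT library, and they differed from each other by more than the WT libraries did. In CPM the means were 0.114 ± 0.116 (SD, n = 3) and 1.61 ± 1.13 (SD, n = 2), which gives 3.67 on the log2 scale (standard error 0.79, 95% interval 1.92 to 5.43, adjusted p = 0.0166). *Jag1* entered the test only through the DKO libraries, since the WT counts were at or near the floor. The size of the difference is therefore loosely held, and with a prior count of 2 the log2 fold change was 3.01.

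The call on *Jag1* moved with single libraries. Leaving out DKO replicate 1, the library that goes against its labelled sex, gave 4.30 with an adjusted p of 0.000213, and leaving out DKO replicate 2 gave 2.73 with 0.0447. Without WT replicate 1, the other library at odds with its label, the log2 fold change was 4.60 (adjusted p = 0.0388), and without WT replicates 2 or 3 it was 3.16 (0.0962) or 3.62 (0.101). DESeq2 gave 3.80 with an adjusted p of 0.00509. The direction was the same in each of these fits.

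*Jag1* is a ligand of other cells as well as T cells, so marker lists of those cells are given beside it. Gamma-delta T cell markers summed to 24.2 to 26.2 CPM in WT and to 183 and 282 CPM in DKO replicates 1 and 2, and 2 of 4 rose (*Tcrg-C1* and *Tcrg-C2*), where 2.42% of all tested genes rose. The list did not move together: *Trdc* overlapped between the genotypes (log2 fold change 0.33, adjusted p = 0.377), and *Sox13* had 28, 25 and 26 reads in WT against 5 and 4 in DKO cells (-2.12, adjusted p = 0.0361). NK and iNKT cell markers summed to 7.21 to 9.36 CPM in WT and to 36.5 and 70.2 CPM in DKO libraries, and 4 of 5 rose (*Ncr1*, *Klrb1c*, *Zbtb16* and *Klrd1*), again against 2.42%. *Ncr1*, with 1, 0 and 0 reads in WT and 31 and 40 in DKO cells, entered the test only through the DKO libraries. *Klrk1* did not pass (log2 fold change 1.41, adjusted p = 0.262). It split the DKO libraries, with 40, 48 and 57 reads in WT, 22 in DKO replicate 1 and 170 in DKO replicate 2. Myeloid and dendritic cell markers summed to 8.67 to 15.01 CPM in WT and to 24.4 and 51.0 CPM in DKO libraries, with none of 6 tested genes past the threshold. In both DKO libraries 4 of the 6 were above the whole WT range (19.6% of all tested genes) and *Flt3* was below it, with 22, 33 and 20 reads in WT against 6 and 6. Of the 4, *Csf1r* (7, 2 and 1 reads in WT against 15 and 19) entered the test only through the DKO libraries. For the summed level of each of these lists, as for *Jag1*, DKO replicate 2 was the highest library, though single genes differed. *Lyz2* made up 18.6 and 42.5 CPM of the myeloid sums in DKO replicates 1 and 2, while *Trdc* was at 18.3 and 15.3 CPM. Thymic epithelial markers summed to 23.6 to 27.9 CPM in WT and to 24.0 and 44.8 CPM in DKO libraries, with none of 4 tested genes past the threshold and a median log2 fold change of -1.34. The high sum of DKO replicate 2 was *Epcam*, at 33.8 CPM there and 8.24 to 10.8 CPM in the others. *Psmb11* (39, 22 and 18 reads in WT against 1 and 0) and *Krt8* (20, 46 and 27 against 4 and 4) were below the WT range in both DKO libraries. B cell markers summed to 5.61 to 6.96 CPM in WT and to 9.11 and 8.62 CPM in DKO libraries, with *Cd79b* above the WT range in both and *Cd79a* below it and neither past the threshold. Endothelial and mesenchymal markers summed to 147 to 183 CPM in WT and to 112 and 139 CPM in DKO libraries, and of these *Kdr*, *Col3a1* and *Pdgfrb* had no read. Nearly all of these sums was *Pecam1*, at 145 to 180 CPM in WT and at 111 and 137 CPM in DKO libraries, which did not pass. The part of any of these cells in the *Jag1* counts was not tested. *Trdc*, *Sox13*, *Klrk1*, *Lyz2*, *Csf1r*, *Flt3*, *Cd79a*, *Cd79b*, *Epcam*, *Psmb11*, *Krt8* and *Pecam1* were named after their values were seen.

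The tested genes whose pattern over the 5 libraries came nearest to that of *Jag1* were *Tcrg-C3*, *Tspan4* and *Klra13-ps*, with root mean square differences of 0.230, 0.332 and 0.395 in centred log2 CPM among 13509 genes compared. *Tcrg-C3*, a constant region gene of the T cell receptor gamma chain, had 5, 0 and 3 reads in WT and 17 and 28 in DKO libraries. *Klra13-ps*, a pseudogene of the Ly49 receptors of NK cells, had 4, 0 and 3 and then 29 and 61 counts. Both entered the test only through the DKO libraries, so their likeness to *Jag1* in WT is one of counts at or near the floor. Both also belong to families of near-identical copies, as do *Tcrg-C1* and *Tcrg-C2* above, so the counts of all of these genes are uncertain. *Tspan4*, which encodes a tetraspanin, had 32, 15 and 28 and then 93 and 224.

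*Jag2* (ENSMUSG00000002799, chr12:112907819-112929776), the other Jagged ligand, had 14, 31 and 28 reads in WT and 15 and 9 in DKO libraries. These overlapped, at 0.956 ± 0.386 and 0.609 ± 0.150 CPM, with a log2 fold change of -0.61 (95% interval -1.81 to 0.58, adjusted p = 0.552). The interval holds lower as well as higher levels, so the direction is not settled at this depth. Of the 7 ligands listed, *Dlk1*, which encodes a ligand-like protein that lacks the domain canonical ligands use, was the 1 gene that rose, where 2.42% of all tested genes did. *Dlk1* had 3, 5 and 1 reads in WT and 54 and 24 in DKO libraries, or 0.121 ± 0.0872 and 1.96 ± 0.871 CPM (log2 fold change 4.04, standard error 0.60, adjusted p = 0.00239). Like *Jag1* it passed the filter only through the DKO libraries, but its higher DKO library was replicate 1, not replicate 2. The Delta genes were at or near the floor in every library: *Dll4* had at most 1 count, *Dll1* at most 7, and *Dll3* none.

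**Figure D3:**
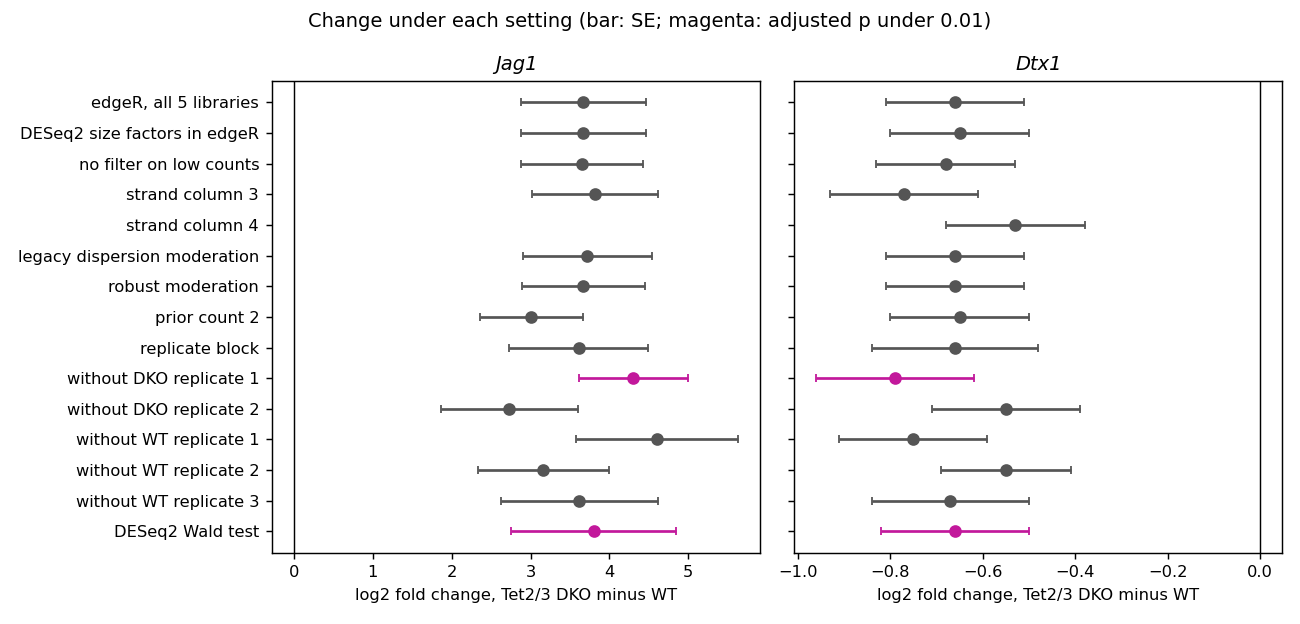
Log2 fold change of *Jag1* and *Dtx1*, *Tet2/3* DKO minus WT, in the fit with all 5 libraries and under each alternative, with bars for the standard error and magenta for an adjusted p below 0.01; *Jag1* had too few reads for the test with strand column 4. *Jag1* stays above 0 and *Dtx1* below 0 throughout, with *Jag1* between 2.73 and 4.60 when single libraries were left out.

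The genes of the nuclear complex showed no difference past the threshold. *Rbpj* (ENSMUSG00000039191, chr5:53466152-53657362), which binds DNA and carries coactivators or corepressors, had 382, 314 and 390 reads in WT and 255 and 352 in DKO libraries. The DKO libraries fell on either side of WT, at 12.2 and 19.7 CPM against 13.2 to 14.8 CPM, and the log2 fold change was 0.16 (95% interval -0.30 to 0.63, adjusted p = 0.708). Without DKO replicate 2 it was -0.23. *Maml2* (ENSMUSG00000031925, chr9:13297957-13709388), a Mastermind coactivator, had 1165, 1038 and 1251 reads in WT and 903 and 655 in DKO libraries. Both DKO libraries, at 43.1 and 36.7 CPM, lay below the WT libraries at 43.7 to 45.6 CPM, but the log2 fold change was -0.17 (standard error 0.11, 95% interval -0.42 to 0.09, adjusted p = 0.443). Of 9 genes listed for the activator complex all were tested and none passed (median 0.12 on the log2 scale), and *Maml2* had the smallest p. Of 12 tested corepressor genes none passed either (median 0.02), the nearest being *Ctbp1*, which encodes a corepressor that docks on RBPJ partners, at 393 ± 7.13 against 323 ± 6.30 CPM (log2 fold change -0.29, adjusted p = 0.0556).

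*Dtx1* (ENSMUSG00000029603, chr5:120680202-120711927) encodes Deltex1, a ubiquitin ligase that binds the intracellular part of Notch and is itself induced by Notch signalling. Counts were 1199, 1458 and 1449 in WT and 772 and 554 in DKO libraries. In CPM the WT libraries stood at 46.4, 61.4 and 52.8 and the DKO libraries at 36.8 and 31.0, so that the groups did not overlap, though the WT libraries differed among themselves by more than the gap between the groups. The means were 53.5 ± 7.55 (SD, n = 3) and 33.9 ± 4.11 CPM (SD, n = 2), a ratio of 0.633 and -0.66 on the log2 scale (standard error 0.15, 95% interval -0.99 to -0.32, adjusted p = 0.0249). *Dtx1* had at least 554 reads in every library, so counting error limits it less than *Jag1*. Without DKO replicate 1 the log2 fold change was -0.79 with an adjusted p of 0.00294, and without WT replicate 1 it was -0.75 with 0.0413. Leaving out DKO replicate 2 gave -0.55 (0.0284), and leaving out WT replicates 2 or 3 gave -0.55 (0.0894) or -0.67 (0.0910). DESeq2 placed *Dtx1* past 0.01, with -0.66 and an adjusted p of 0.000894.

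The classical targets *Hes1* and *Ptcra* were close to silent in both genotypes. *Hes1* (ENSMUSG00000022528, chr16:30064384-30067796), a transcriptional repressor that Notch induces in thymic precursors, had 2, 0 and 8 reads in WT and 12 and 4 in DKO libraries, which overlapped. *Ptcra* (ENSMUSG00000036858, chr17:46755663-46763712), which encodes the pre-T cell receptor alpha chain used at beta-selection, had 3, 0 and 0 reads in WT and 2 and 0 in DKO libraries. Fitted without the filter on low counts, the log2 fold change of *Hes1* was 1.6 (adjusted p = 0.462) and that of *Ptcra* 0.34 (adjusted p = 0.936). At this depth a difference in either was not detectable.

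**Figure D4:**
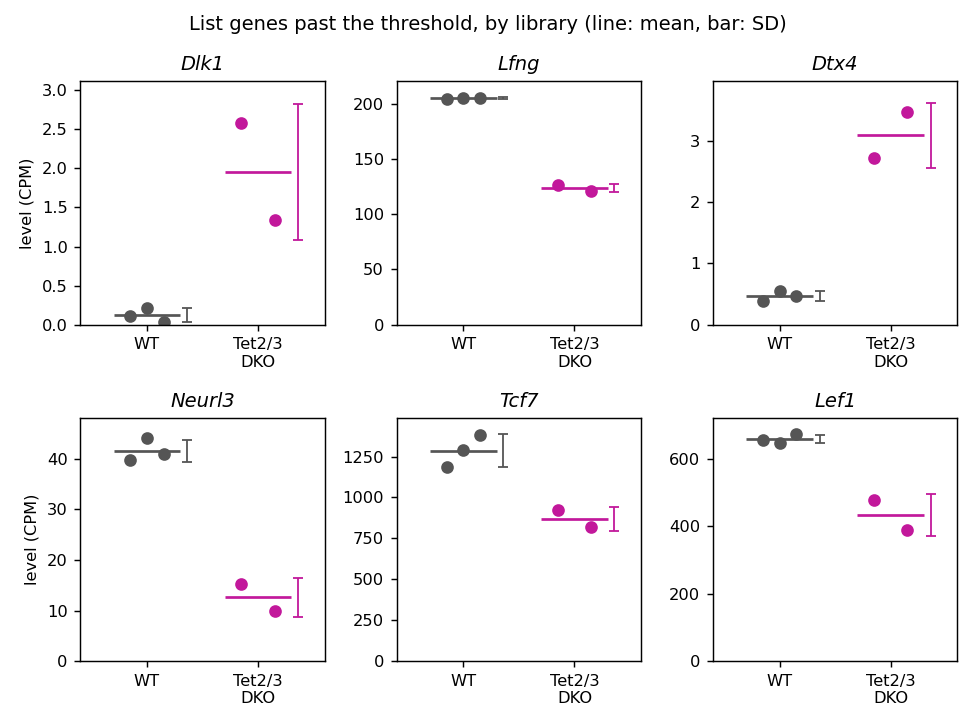
CPM in each library of the 6 genes of the wider Notch pathway lists that passed an adjusted p of 0.01, 1 panel for each gene, with a line at the mean and a bar for the SD (WT grey, *Tet2/3* DKO magenta). *Dlk1* and *Dtx4* are higher and *Lfng*, *Neurl3*, *Tcf7* and *Lef1* lower in both *Tet2/3* DKO libraries than in all 3 WT libraries.

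The other genes of the pathway were taken from 8 lists by role, 79 genes in all with 65 tested. Of these, 2 rose and 4 fell past 0.01, where 2.42% of all tested genes rose and 1.5% fell, and the median log2 fold change was 0.03. Among the 5 genes that modify the receptors' sugars, 1 fell. *Lfng* encodes lunatic fringe, a glycosyltransferase that makes NOTCH1 respond better to Delta ligands. It had 5275, 4880 and 5630 reads in WT and 2653 and 2162 in DKO libraries, with the CPM of the 3 WT libraries between 204 and 206 and those of the DKO libraries at 126 and 121. The libraries of each genotype lay close together and the groups far apart (log2 fold change -0.73, standard error 0.08, adjusted p = 0.00106). The other fringe genes did not pass, with *Mfng* at 251 ± 6.56 and 208 ± 9.73 CPM (log2 fold change -0.28, adjusted p = 0.0781) and *Rfng* at a log2 fold change of 0.18 (adjusted p = 0.370), both named after their values were seen.

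None of the 9 tested genes for receptor cleavage, the furin, ADAM and gamma-secretase genes that free the intracellular part, passed the test (median -0.02). The gamma-secretase subunit *Aph1b* had the smallest p, with 10 to 33 reads in WT and 32 and 26 in DKO libraries (log2 fold change 0.80, adjusted p = 0.336). Among 13 tested negative regulators and endocytosis genes, *Dtx4* rose and *Neurl3* fell (2.42% and 1.5% of all tested genes). *Dtx4*, a Deltex ligase related to *Dtx1*, had 10, 13 and 13 reads in WT and 57 and 62 in DKO libraries, or 0.469 ± 0.0806 against 3.09 ± 0.531 CPM (log2 fold change 2.7, standard error 0.37, adjusted p = 0.00233). *Dtx4* thus rose from a low level, while *Dtx1*, far more abundant, had a lower mean in DKO cells and did not pass 0.01. *Neurl3*, a member of the Neuralized family of ubiquitin ligases, had 1029, 1044 and 1121 reads in WT and 322 and 177 in DKO libraries. Its level was 41.6 ± 2.18 in WT and 12.6 ± 3.85 CPM in DKO cells (log2 fold change -1.70, standard error 0.18, adjusted p = 0.000602).

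Of 20 listed target genes 13 were tested, 2 fell (against 1.5% of all tested genes) and none rose, with a median log2 fold change of -0.29. In 7 of the 13 both DKO libraries lay below the WT range, against 19.5% of all tested genes. The genes that fell were *Tcf7*, at 1286 ± 101 and 870 ± 73.8 CPM (log2 fold change -0.56, standard error 0.10, adjusted p = 0.00741), and *Lef1*, at 659 ± 12.3 and 434 ± 62.5 CPM (log2 fold change -0.60, standard error 0.10, adjusted p = 0.00611). Both encode HMG-box factors that act throughout T cell development as well as downstream of Notch in precursors. The hairy-related targets did not pass and had few reads. *Hes5* had 3, 9 and 1 reads in WT and 10 and 9 in DKO libraries (log2 fold change 1.5, adjusted p = 0.265), and *Hey1* had 18, 10 and 16 and then 55 and 14 (1.62, adjusted p = 0.112). *Hey1* turned on the DKO libraries: it was at 0.45 (adjusted p = 0.753) without DKO replicate 1 and passed, at 2.17 (adjusted p = 0.00314), without DKO replicate 2. *Il2ra*, the interleukin-2 receptor alpha chain, split the DKO libraries, with 34.1, 33.7 and 37.4 CPM in WT, 11.4 in DKO replicate 1 and 38.3 in DKO replicate 2. Its log2 fold change was -0.52 (adjusted p = 0.455) with all libraries, -1.63 (adjusted p = 7.86e-06) without DKO replicate 2 and 0.12 without DKO replicate 1, and *Hes5*, *Hey1* and *Il2ra* were named after their values were seen. Regulatory T cell markers, of which *Il2ra* is 1, summed to 160 to 187 CPM in WT and to 116 and 164 CPM in DKO libraries, and 1 of the 5, *Foxp3*, fell (log2 fold change -1.31, adjusted p = 0.00191), where 1.5% of all tested genes did. The others did not pass, with *Ctla4* at 0.09, *Ikzf2* at 0.37 and *Ikzf4* at -0.53 on the log2 scale. *Ikzf4* was below the WT range in both DKO libraries, at 12.5 and 10.2 CPM against 14.2 to 18.8 CPM. *Ctla4*, *Ikzf2* and *Ikzf4* were named after their values were seen.

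**Figure D5:**
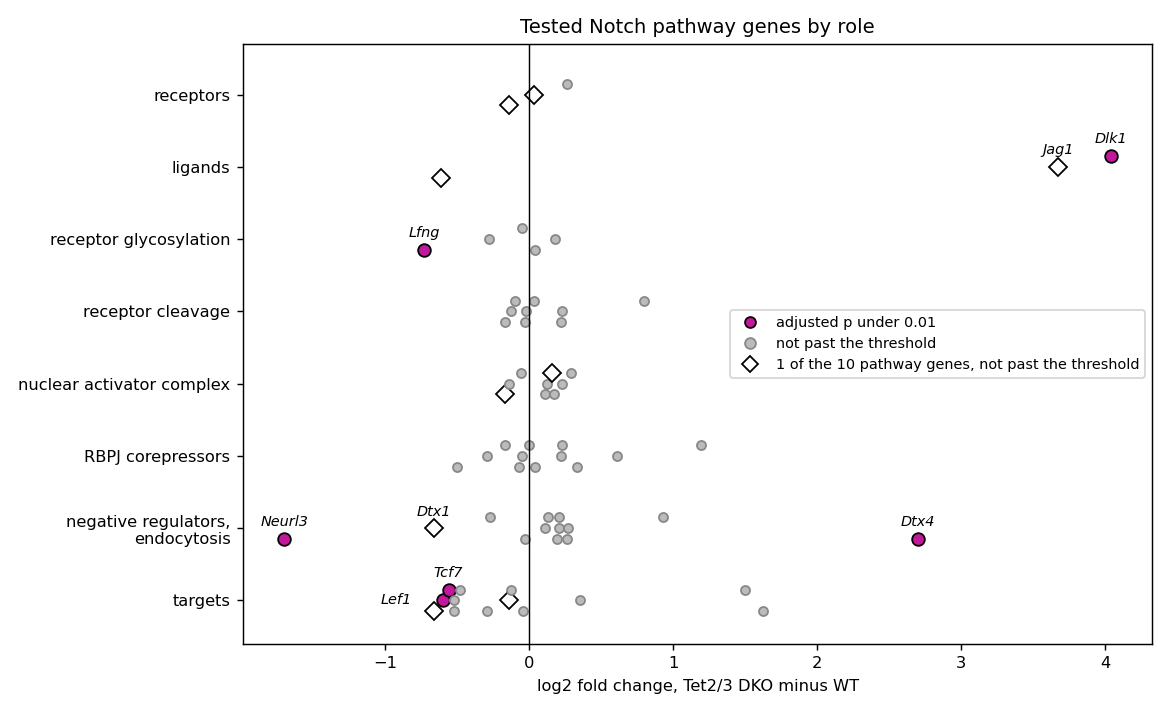
Log2 fold change, *Tet2/3* DKO minus WT, of each tested gene of the 8 Notch pathway lists, 1 row for each role, with filled magenta points for an adjusted p below 0.01 and diamonds for the genes described first. Most points lie near 0, with *Neurl3* at -1.70 and *Dlk1* at 4.04 at the ends.

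Fewer of these 6 genes passed when a WT library was left out, while the direction of each held whichever library was left out. Calls over all genes also dropped, from 530 to 152, 110 and 127 without WT replicates 1, 2 and 3. The loss was thus not particular to these genes. Without WT replicate 2 none of the pathway genes passed 0.01, and without WT replicate 1 or WT replicate 3 only *Neurl3* did. In those 3 fits the adjusted p of *Lfng* ran from 0.0107 to 0.0125, that of *Dtx4* from 0.0197 to 0.0234, that of *Dlk1* from 0.0190 to 0.0313, that of *Tcf7* from 0.0229 to 0.0478 and that of *Lef1* from 0.0373 to 0.0404. Leaving out a DKO library leaves 1, so that the spread comes from WT alone and only log2 fold changes are given. Without DKO replicates 1 and 2 in turn, *Lfng* was at -0.76 and -0.71 and *Neurl3* at -2.07 and -1.45. *Dtx4* was at 2.88 and 2.51, *Dlk1* at 3.46 and 4.39 and *Lef1* at -0.76 and -0.48. *Tcf7* lay between -0.66 and -0.49 over all single libraries left out. Of the 14 other genes called here, *Tet3* and genes of the stage and marker lists, each kept its direction whichever library was left out. Of these genes 9 passed without WT replicate 1 and 5 without WT replicate 2 or WT replicate 3 (*Tcrg-C1*, *Tcrg-C2*, *Zbtb16*, *Cd5* and *Cd8b1*). The 5 lost without WT replicate 1 were *Ncr1*, *Klrb1c*, *Ccr7*, *Cd4* and *S1pr1*.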

How the data were processed

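The authors trimmed reads with fastp 0.21.0, aligned them with STAR 2.7.5a to mm10 and deposited raw read counts per gene for each library, without normalization or pooling; reads on overlapping genes were left out of the counts. The SMART-seq chemistry carries no molecular identifiers, and the intervals and floors hold counting error alone. Per the labels, RNA integrity was at least 9. Symbols, coordinates and exon lengths came from GENCODE M21 (GRCm38). Of 55487 identifiers 55141 matched. Counts without regard to strand (49.8% to 50.2% of reads on either) were tested with edgeR 4.0.16 in R 4.3.3: TMM scaling, filterByExpr by genotype (minimum count 10), quasi-likelihood test without legacy moderation, Benjamini-Hochberg adjustment over all tested genes and a threshold of 0.01. A standard error is |log2 fold change| over the root of the F statistic. DESeq2 1.42.0 and other scalings, filters, strand columns, thresholds, a replicate block and leaving out each library were alternatives. Leaving out libraries for *Tet3* and the stage and marker genes was chosen after seeing the data. The test was checked on simulated counts.

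The members and lists were chosen with earlier results of these data known. Named were the members, list genes past the threshold or with the smallest p of a list where none passed, the genes used to check the libraries and markers, and the 3 genes most like *Jag1*. *Notch4*, the *Dll* genes and the others outside this rule were chosen after their values were seen. Promoters were taken from RefSeq (GRCm38.p6) for 9 members. The clonotype tables were not used here.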

Additional observations from a re-analysis of the deposited data

How the results depend on the processing

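Of 97 alternative fits of single members, 88 kept the direction and the side of the 0.01 threshold, 4 passed it and 5 changed sign. The 4 that passed it were *Jag1* and *Dtx1* with DESeq2 and without DKO replicate 1. The sign changed for *Notch1* with the reads of 1 strand (0.05) and without WT replicate 2 (0.02), for *Notch2* without WT replicate 2 (-0.05) and without DKO replicate 1 (-0.06), and for *Rbpj* without DKO replicate 2 (-0.23), with no test passed. Over single libraries left out, *Notch1* lay between -0.32 and 0.02, *Notch2* between -0.06 and 0.14, and *Rbpj* between -0.23 and 0.48.

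Genes past the threshold numbered 530 over all genes, 0 among the members and 6 in the pathway lists. DESeq2 gave 1027, 2 and 10, a threshold of 0.05 gave 1173, 2 and 8, and leaving out single libraries gave 110 to 1311, 0 to 2 and 0 to 10, the lone DKO library then being assumed to vary like WT. Same-numbered libraries did not deviate together (correlations 0.0151 and 0.00446 over 2 pairs of different mice). With the replicate number as a block 358, 0 and 2 genes passed (*Lfng* and *Neurl3*), with *Jag1* at 3.61 and *Dtx1* at -0.66. Levels per length moved by more than the SD with the longest transcript for *Dtx1*, *Maml2*, *Rbpj* and *Notch1*. The causes were not tested. Depth limits *Jag1*, *Hes1*, *Ptcra* and *Notch3*, whose counts reach the floor.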

Other observations

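Genes of beta-selection, the double-positive stage and the CD4 SP stage were also counted. Of 12 genes of CD4 SP identity, all tested, 5 fell and none rose, where 1.5% of all tested genes fell. Among them *Cd5*, a negative regulator of T cell receptor signalling, was at 907 ± 29.4 CPM in WT and 374 ± 42.1 CPM in *Tet2/3* DKO cells (log2 fold change -1.28, edgeR adjusted p = 8.6e-05). *Ccr7*, which guides single-positive cells to the medulla, was at 2200 ± 34.3 and 1403 ± 94.4 CPM (log2 fold change -0.65, edgeR adjusted p = 0.00153), and *S1pr1*, which lets mature cells leave the thymus, at 787 ± 69.8 and 504 ± 28.3 CPM (log2 fold change -0.64, edgeR adjusted p = 0.00394). *Cd4* and *Zbtb7b* were the others. Without WT replicate 1 *Cd5* and *Zbtb7b* passed, and *Ccr7*, *S1pr1* and *Cd4* did not (edgeR adjusted p = 0.0165, 0.0312 and 0.0419). Without DKO replicate 1, which leaves 1 DKO library, the log2 fold changes were -1.40 (*Cd5*), -0.72 (*Ccr7*), -0.70 (*S1pr1*), -0.59 (*Cd4*) and -1.15 (*Zbtb7b*).

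Of 10 tested genes of beta-selection and the double-positive stage 1 fell, where 1.5% of all tested genes did. It was *Cd8b1*, with 66.9, 65.9 and 71.7 CPM in WT and 28.6 and 27.1 CPM in DKO libraries (log2 fold change -1.29, edgeR adjusted p = 0.000168), a call that held with any single library left out. Its partner *Cd8a* did not pass, with 2.71, 2.91 and 5.39 CPM in WT and 5.77 and 8.67 CPM in DKO libraries (log2 fold change 0.94, edgeR adjusted p = 0.128). In both DKO libraries 4 of the 10 were below the whole WT range (19.5% of all tested genes), *Cd8b1*, *Dntt* (-0.53), *Cd24a* (-0.95) and *Arpp21* (-1.36), and 2 were above it, *Cd8a* and *Themis* (0.82, edgeR adjusted p = 0.0229). *Cd8a*, *Dntt*, *Cd24a*, *Arpp21* and *Themis* were named after their values were seen. Erythroid markers reached at most 0.336 CPM in summed level.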
